A study of Mus with 21 samples.

Results

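The epidermal growth factor (EGF) receptor system was examined in mouse skin wounds through 9 genes, chosen by symbol for their place in the pathway. The choice was made with earlier results of these data known. The genes were the receptors Egfr, Erbb2 and Erbb3, and the ligands Hbegf, Areg, Ereg, Epgn, Tgfa and Btc. All 9 were found among the 18806 genes of the count files, and all 9 passed the filter on low counts in every comparison. The libraries came from wild-type female C57BL/6 mice, wounded at 8 weeks of age and sampled on Day 4. All wounds were splinted full-thickness skin wounds of 8 mm diameter. Control wounds received no hydrogel. The other wounds received a GelMA (gelatin methacryloyl) hydrogel scaffold of pH 6.4, 7.4 or 8.4 that carried 200 ng of aFGF (acidic fibroblast growth factor) or bFGF (basic fibroblast growth factor), which gave the groups 6.4/aFGF, 7.4/aFGF, 8.4/aFGF, 6.4/bFGF, 7.4/bFGF and 8.4/bFGF, with 3 libraries in each of the 7 groups. No group had an empty hydrogel, so that the hydrogel and its growth factor cannot be told apart in any comparison with control, and a library is a whole wound sample in which fewer cells of a type and less RNA per cell cannot be told apart.

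The ligands are made as membrane-bound precursors that metalloproteases of the ADAM family release from the cell surface, and a released ligand joins receptors into pairs that signal through Ras and MAP kinases and through PI3 kinase. Egfr binds all 6 ligands, Erbb2 binds no ligand and acts as a partner, and Erbb3 binds neuregulins and signals mainly through its partner. In skin the system is known for driving keratinocytes to divide and to migrate over a wound, and ligands such as amphiregulin and epiregulin are also made by immune cells. Epgn, Ereg, Areg and Btc are neighbouring genes, in that order, on chromosome 5, between Mthfd2l and Parm1 in a RefSeq gene table. Hbegf lies on chromosome 18, Tgfa on chromosome 6, Egfr and Erbb2 on chromosome 11, and Erbb3 on chromosome 10.

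Total counts per library ranged from 34362558 to 37817833, and the lowest count of any member in any library was 31 (Btc), so that no member was near the limit of detection. Skin transcripts were present throughout: the 20 keratinocyte genes summed to 2960 to 7555 CPM (counts scaled to a fixed library total) over the 21 libraries. Transcripts of another tissue were highest in 3 libraries. Cartilage and bone genes summed to 235 CPM in 7.4/aFGF replicate 3 against at most 17.7 CPM elsewhere. The liver genes other than Trf and Cyp2e1 summed to 145 CPM in 8.4/aFGF replicate 2, against 104 CPM in 7.4/bFGF replicate 3 and 83.4 CPM in 6.4/aFGF replicate 1. Ovary and oviduct genes summed to 778 CPM in 8.4/bFGF replicate 2, against 503 CPM in 6.4/aFGF replicate 1 and 456 CPM in 8.4/aFGF replicate 1. High sums for liver and ovary were thus not confined to these libraries. Calls between aFGF and bFGF, and calls that change, are also given without these 3, which leaves such transcripts in other libraries. Skeletal muscle genes varied more, from 287 CPM in 7.4/bFGF replicate 3 to 18461 CPM in 6.4/aFGF replicate 3. Replicates of a group differed too: 7.4/bFGF replicates 1 and 2, close to each other, had 15649 and 16020 CPM against the 287 CPM of replicate 3. The part of muscle in the members' values was not tested. Control replicate 2 differed from control replicates 1 and 3 in several marker lists. Its neutrophil genes summed to 8805 CPM against 1330 and 791 CPM, its mast cell genes to 969 against 411 and 378 CPM, its T and innate lymphoid cell genes to 448 against 181 and 137 CPM, and its ovary and oviduct genes to 348 against 107 and 82.1 CPM. Its adipocyte genes summed to 969 CPM against 10822 and 6050 CPM, and its sebaceous gland genes to 1236 against 8924 and 3833 CPM.

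Per length of transcript, on the FPKM scale (fragments per kilobase of transcript, scaled to library total), the summed ligands were near the summed receptors in 2 of 3 control wounds and above them in all hydrogel wounds. The FPKM of the 6 ligands summed to 19.0, 38.7 and 17.3 in control replicates 1, 2 and 3. With bFGF the sum ranged from 27.5 to 41.1, with a median of 31.5 over 9 libraries, and with aFGF from 32.4 to 146 with a median of 62.4. The 3 receptors summed to 19.8 to 20.4 FPKM in control, 17.1 to 22.9 with bFGF and 20.0 to 29.2 with aFGF. The receptors thus kept to a narrower range than the ligands. Hbegf had the highest FPKM of the ligands in 8 of 9 bFGF libraries, whereas in aFGF libraries the first place went to Hbegf in 4, to Ereg in 2, to Epgn in 2 and to Areg in 1. Mean FPKM with aFGF was 18.0 for Hbegf, 17.1 for Ereg, 17.1 for Areg, 15.7 for Epgn, 5.55 for Tgfa and 0.669 for Btc. With bFGF the same means were 10.5 for Hbegf, 3.43 for Ereg, 5.82 for Areg, 7.74 for Epgn, 4.17 for Tgfa and 0.615 for Btc. Btc was thus the lowest ligand in all 3 sets of libraries, at 0.987 FPKM in control.

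**Figure D1:**
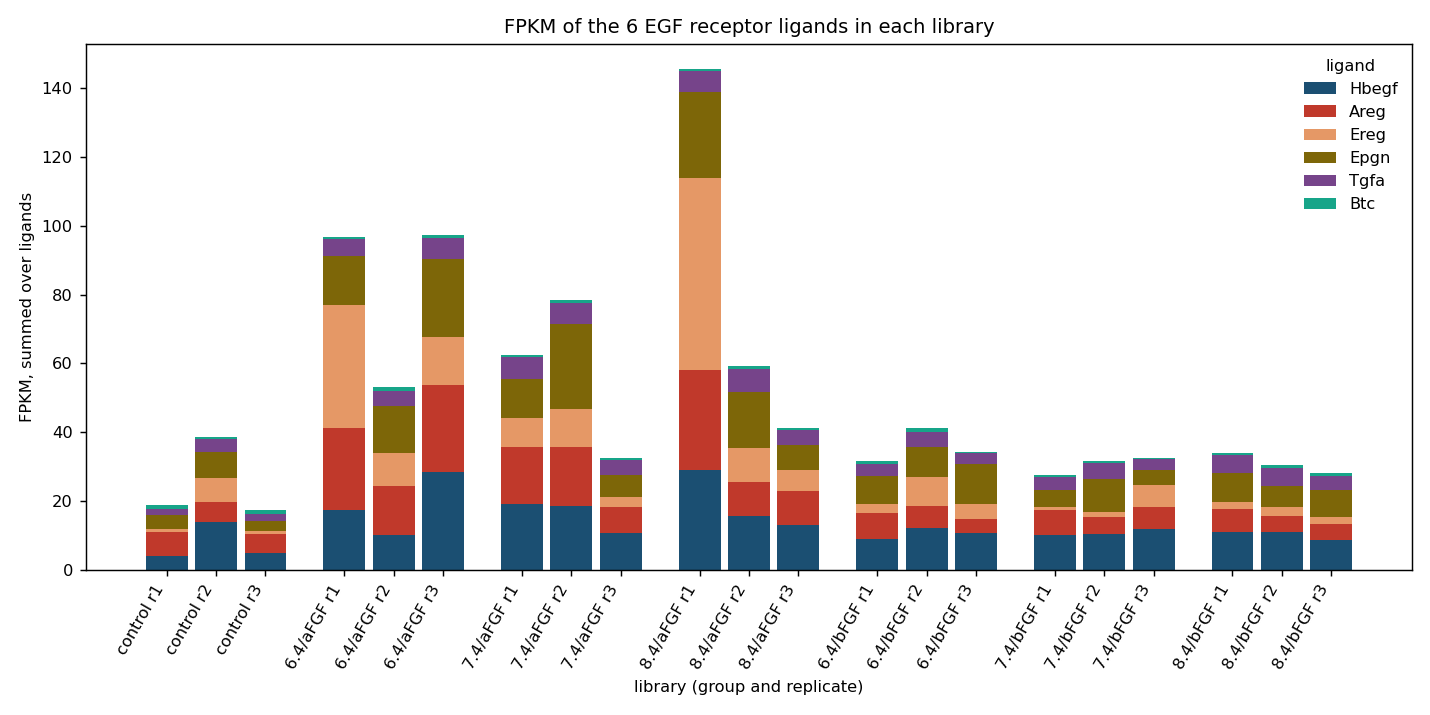
FPKM of the 6 ligands in each of the 21 libraries, stacked by ligand (y axis, linear from 0), with the libraries by group and replicate on the x axis. The tallest bar is 8.4/aFGF replicate 1 at 146, with Ereg the largest piece at 55.7, and the 9 bFGF bars stay between 27.5 and 41.1.

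The members differed widely in how much they varied. On the CPM scale, scaled by TMM (trimmed mean of M-values) and compared within a gene only, the highest library exceeded the lowest by 75.7-fold for Ereg, 10.0-fold for Epgn, 8.34-fold for Hbegf, 7.95-fold for Areg, 3.88-fold for Tgfa and 3.58-fold for Btc. The receptors spanned 2.52-fold for Egfr, 2.36-fold for Erbb3 and 1.57-fold for Erbb2. The SD of log2 CPM over the 21 libraries was larger for Ereg than for 98.9% of all genes tested, and for Erbb2 than for 31.6%.

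**Figure D2:**
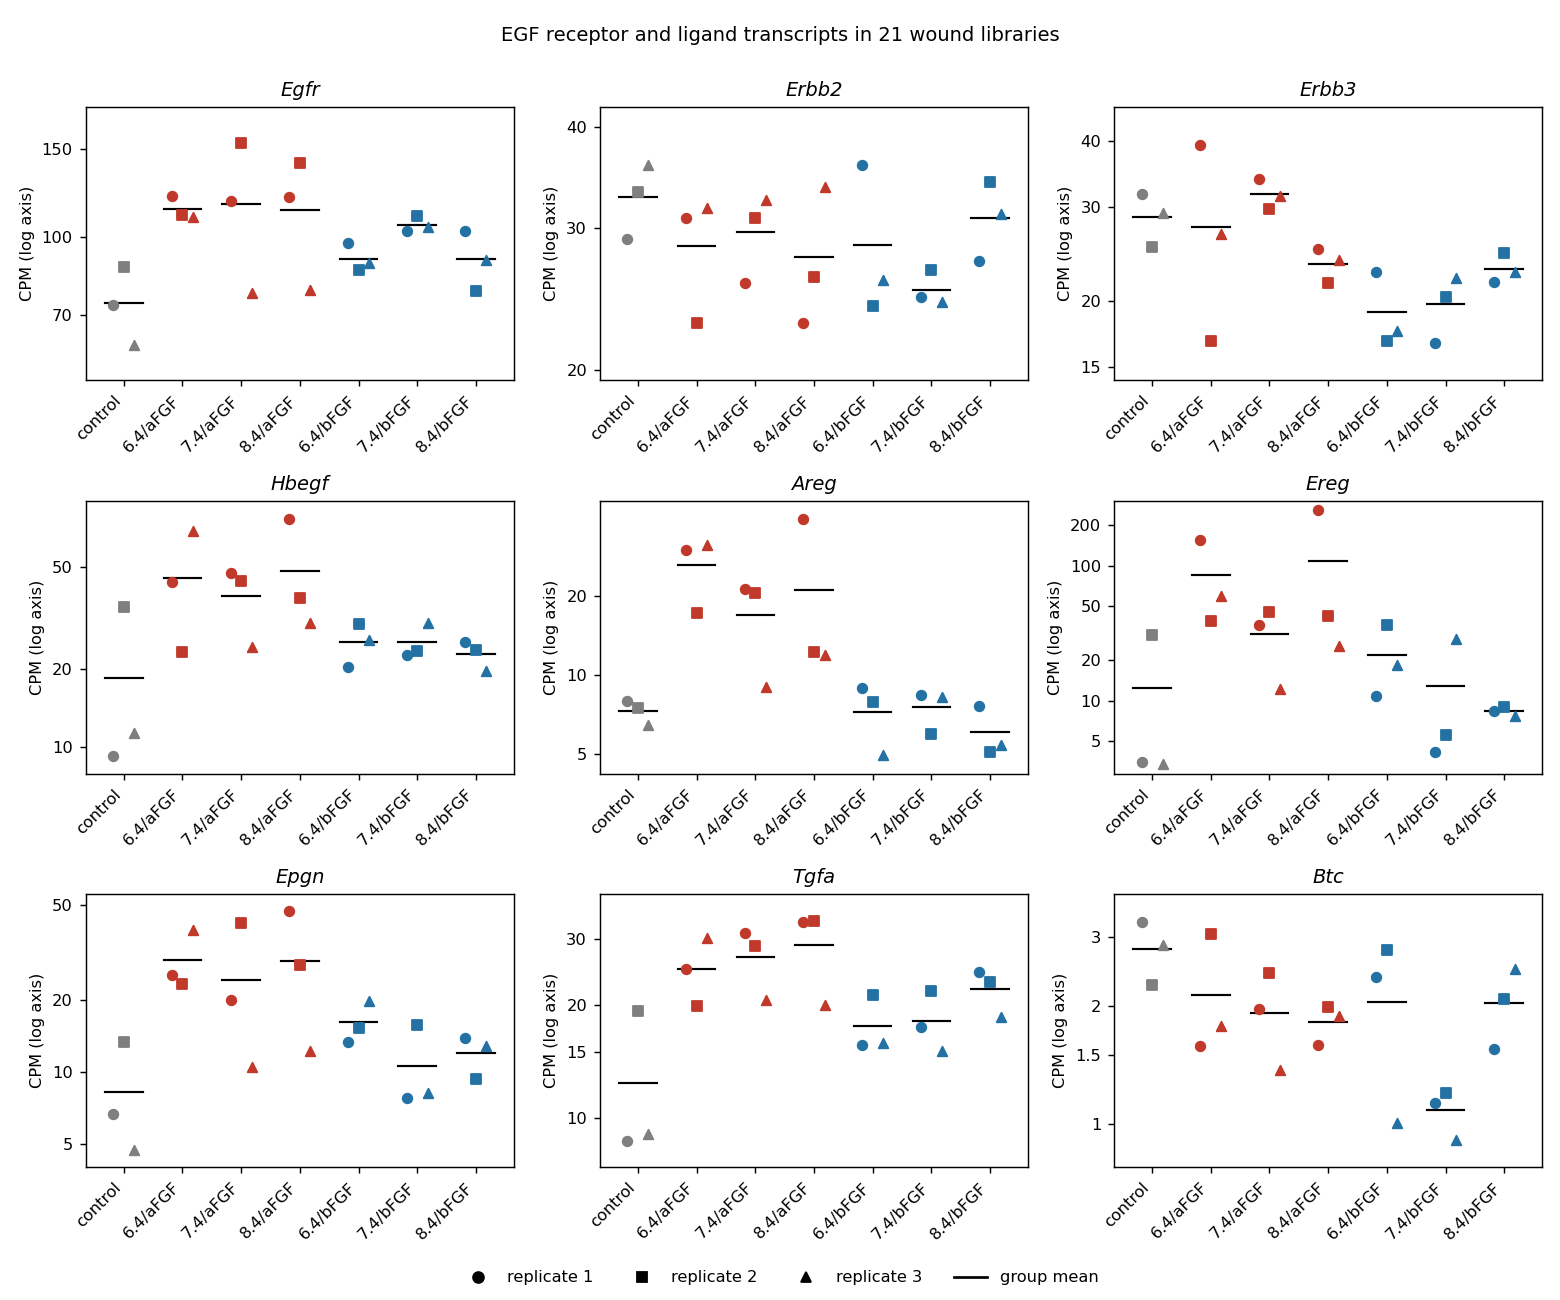
CPM of each member (log axis, 1 panel a gene) in the 7 groups, with 1 point a library, the point's shape giving the replicate number and a black line the group mean. Every aFGF point of Areg lies above every bFGF and control point, while control replicate 2 (square) lies above the other controls for Hbegf, Ereg, Epgn and Tgfa.

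Whether the growth factor carried by the hydrogel went with the level of these genes was tested with the 9 aFGF libraries against the 9 bFGF libraries. These sets were matched in pH and in loaded dose. In PBS, the paper reports a higher cumulative release of aFGF from the weakly acidic hydrogel than from the neutral and weakly alkaline ones. For bFGF it reports no difference in release by pH. Delivered doses may thus differ, and their part in the members' values was not tested. The ligands amphiregulin, epiregulin and epigen were higher with aFGF, by 3.05-fold, 4.98-fold and 2.16-fold. Of the 9 members, 3 were called higher and 0 lower, where 3.2% of all genes tested were called in either direction and 1.46% called higher; called means an adjusted p under 0.05 by edgeR's quasi-likelihood test, with Benjamini-Hochberg adjustment over all 15811 genes tested, and a log2 fold change beyond 0.58. The log2 fold change was above 0 for all 9 members, with a median of 0.49 against -0.0016 over all genes tested, and 6 of 9 members had an unadjusted p under 0.05, as did 28.02% of all genes.

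Areg encodes amphiregulin, a ligand of Egfr. With aFGF its level was 30.2, 17.2 and 31.3 CPM at pH 6.4, 21.3, 20.5 and 9.02 CPM at pH 7.4, and 39.4, 12.3 and 12.0 CPM at pH 8.4 (replicates 1, 2 and 3 in each). With bFGF it was 8.95, 7.90 and 4.95 CPM at pH 6.4, 8.39, 5.96 and 8.28 CPM at pH 7.4, and 7.64, 5.11 and 5.42 CPM at pH 8.4. Control wounds had 7.99, 7.53 and 6.48 CPM. Every aFGF library was above every bFGF library, and control lay within the bFGF range. Such a full separation was found for 1 of the 9 members and for 0.386% of all genes. Between aFGF and bFGF the log2 fold change was 1.61 (SE 0.247, edgeR adjusted p = 0.00366), and Areg ranked 25 by p among the 15811 genes. An exact permutation test of the mean log2 CPM, with the growth factor exchanged among libraries of the same pH, gave a two-sided p = 0.00025, the smallest that its 8000 arrangements allow. The call held without any single library, without the 3 libraries with transcripts of another tissue (1.77, adjusted p = 0.00838) and with the keratinocyte score as a covariate (1.61), an alternative chosen after seeing the data. That score had a Pearson r of only 0.20 with Areg.

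Ereg encodes epiregulin, a ligand that also acts through Erbb4. With aFGF its level was 155, 38.8 and 59.4 CPM at pH 6.4, 36.5, 45.6 and 12.1 CPM at pH 7.4, and 256, 42.1 and 25.6 CPM at pH 8.4. With bFGF it was 10.8, 36.3 and 18.3 CPM at pH 6.4, 4.21, 5.58 and 28.6 CPM at pH 7.4, and 8.43, 8.97 and 7.68 CPM at pH 8.4. Control wounds had 3.51, 30.5 and 3.39 CPM. The ranges of aFGF and bFGF overlapped, and 6.4/aFGF replicate 1 and 8.4/aFGF replicate 1 stood far above the rest. The log2 fold change was 2.32 (SE 0.587, edgeR adjusted p = 0.0227, exact permutation p = 0.00125). Without 8.4/aFGF replicate 1 it was 1.76 with an adjusted p of 0.0591, and without 6.4/bFGF replicate 1 it was 2.21 with an adjusted p of 0.0541, so that the call rested on each of these libraries. Without the 3 libraries with transcripts of another tissue it was 2.59 (adjusted p = 0.0413).

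Epgn encodes epigen. With aFGF its level was 25.6, 23.4 and 39.4 CPM at pH 6.4, 20.1, 42.0 and 10.5 CPM at pH 7.4, and 47.1, 28.03 and 12.2 CPM at pH 8.4. With bFGF it was 13.4, 15.3 and 19.9 CPM at pH 6.4, 7.84, 15.7 and 8.22 CPM at pH 7.4, and 13.9, 9.33 and 12.9 CPM at pH 8.4. Control wounds had 6.72, 13.4 and 4.71 CPM. Of the 9 aFGF libraries, 7 were above every bFGF library, and 7.4/aFGF replicate 3 and 8.4/aFGF replicate 3 lay within the bFGF range. The difference was 1.11 on the log2 scale (SE 0.296, edgeR adjusted p = 0.0280, exact permutation p = 0.004), with 1.19 (adjusted p = 0.0444) without the 3 libraries with transcripts of another tissue. The call was lost without any of 7 libraries, 6.4/aFGF replicate 3, 7.4/aFGF replicate 2, 8.4/aFGF replicate 1, 6.4/bFGF replicates 1 and 2, 7.4/bFGF replicate 1 and 8.4/bFGF replicate 2, with log2 fold changes of 0.89 to 1.10 and adjusted p of 0.0506 to 0.0660.

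Hbegf encodes heparin-binding EGF-like growth factor, a ligand of Egfr and Erbb4. With aFGF its level was 43.6, 23.4 and 68.9 CPM at pH 6.4, 47.5, 43.9 and 24.4 CPM at pH 7.4, and 76.9, 37.8 and 30.4 CPM at pH 8.4. The bFGF libraries had 20.4, 29.9 and 26.0 CPM at pH 6.4, 22.7, 23.6 and 30.3 CPM at pH 7.4, and 25.5, 23.7 and 19.7 CPM at pH 8.4. Control wounds had 9.22, 35.0 and 11.3 CPM. The bFGF libraries stayed within a narrow band that the lowest aFGF libraries entered, and control replicates 1 and 3 were below every hydrogel library. The log2 fold change of aFGF over bFGF was 0.84 (SE 0.271, exact permutation p = 0.005) and missed the threshold by edgeR (adjusted p = 0.0571). It passed in a fit of the 18 hydrogel libraries alone, added after seeing the data (adjusted p = 0.0242), and in DESeq2 (adjusted p = 0.0192), which called 4.78% of all genes to which it gave an adjusted p, the base of each DESeq2 share here.

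Tgfa encodes transforming growth factor alpha, a ligand made by keratinocytes themselves. With aFGF its level was 25.0, 19.9 and 30.2 CPM at pH 6.4, 31.1, 28.8 and 20.6 CPM at pH 7.4, and 33.4, 33.6 and 20.1 CPM at pH 8.4. The bFGF libraries had 15.6, 21.3 and 15.9 CPM at pH 6.4, 17.5, 21.8 and 15.1 CPM at pH 7.4, and 24.5, 23.1 and 18.6 CPM at pH 8.4. Control wounds had 8.67, 19.3 and 9.07 CPM. All 9 aFGF libraries were above all 3 controls, while the aFGF and bFGF ranges overlapped. The log2 fold change of aFGF over bFGF was 0.49 (SE 0.167, edgeR adjusted p = 0.0669, exact permutation p = 0.00525). Btc encodes betacellulin, a ligand of Egfr and Erbb4. It was the least abundant member, at 1.37 to 3.06 CPM with aFGF (median 1.89), 0.913 to 2.77 CPM with bFGF (median 1.55) and 3.27, 2.26 and 2.87 CPM in control. The ranges overlapped, and the exact permutation p for aFGF against bFGF was 0.27.

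Of the receptors, none was called between aFGF and bFGF. Egfr was at 77.5 to 154 CPM with aFGF (median 118), 78.2 to 110 CPM with bFGF (median 97.2) and 73.2, 87.3 and 61.1 CPM in control. The 95% interval of its log2 fold change of aFGF over bFGF was -0.0012 to 0.53. Erbb2 was at 22.8 to 33.7 CPM with aFGF (median 30.8), 24.0 to 35.8 CPM with bFGF (median 26.5) and 29.0, 33.2 and 35.9 CPM in control, and the interval of its log2 fold change was -0.19 to 0.23. Erbb3 was at 16.8 to 39.2 CPM with aFGF (median 26.7), 16.7 to 24.6 CPM with bFGF (median 21.7) and 31.8, 25.3 and 29.2 CPM in control. All 3 controls were above all 9 bFGF libraries for Erbb3, and 1.7% of all genes were lower with bFGF in this way. Its log2 fold change of aFGF over bFGF was 0.42 (SE 0.124, edgeR adjusted p = 0.0404, exact permutation p = 0.0148), past the p threshold and under the fold threshold.

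**Figure D3:**
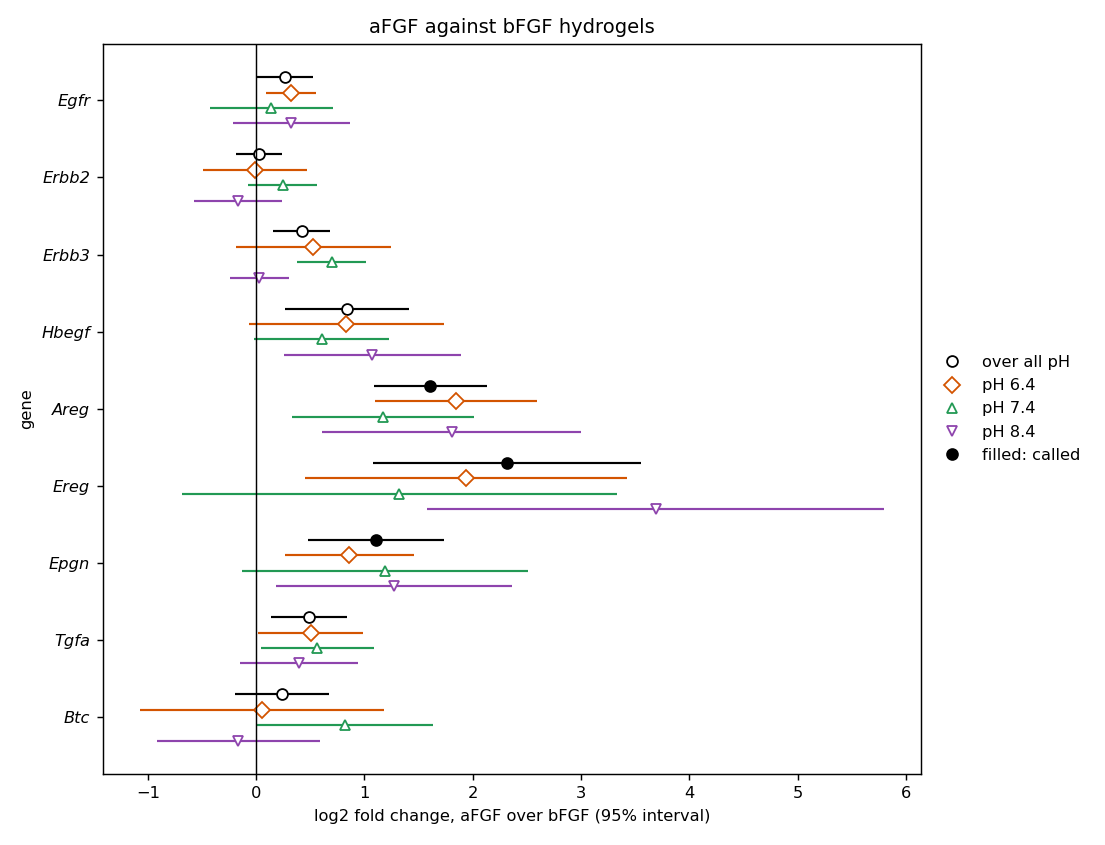
Log2 fold change of aFGF over bFGF for each member (x axis, with the 95% interval of edgeR's quasi-likelihood fit), over all pH in black and at pH 6.4, 7.4 and 8.4 in colour, filled where called. Areg, Ereg and Epgn are filled over all pH at 1.61, 2.32 and 1.11, and no member is filled at a single pH.

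Cell markers were read beside these values. The 20 keratinocyte genes summed to 4119 to 7555 CPM with aFGF (median 5692) and 2960 to 7089 CPM with bFGF (median 5067), and edgeR called 0 of the 20, with 7 at an unadjusted p under 0.05. The 12 neutrophil genes summed to 4039 to 11483 CPM with aFGF and 3178 to 13323 CPM with bFGF, with 0 called and 0 at an unadjusted p under 0.05. The 10 T and innate lymphoid cell genes summed to 232 to 646 CPM with aFGF (median 422) and 146 to 239 CPM with bFGF (median 167). Il1rl1, the interleukin 33 receptor of innate lymphoid cells, regulatory T cells and mast cells, was the 1 gene of that list that was called, at 142 to 559 CPM with aFGF and 58.4 to 153 CPM with bFGF, a log2 fold change of 1.56 (SE 0.328, edgeR adjusted p = 0.0112). Without Il1rl1 the list summed to 82.4 to 208 CPM with aFGF (median 93.3) and 65.3 to 108 CPM with bFGF (median 86.0), and the highest value was 7.4/aFGF replicate 1, with the other aFGF libraries at 110 CPM or less. The 13 macrophage genes summed to 8598 to 14170 CPM with aFGF (median 11520) and 6310 to 10711 CPM with bFGF (median 9381). The 9 mast cell genes summed to 488 to 939 CPM with aFGF (median 660) and 252 to 903 CPM with bFGF (median 461). The 10 fibroblast genes went the other way, with medians of 42476 CPM with aFGF and 45761 CPM with bFGF. Of the 13 macrophage genes 1 was called, Fcgr1, an immunoglobulin receptor (0.66, adjusted p = 0.0443, and 0.57 with 0.0956 without the 3 libraries with transcripts of another tissue), and of the 10 fibroblast genes 1 was called lower, Pdgfrb, a receptor for platelet-derived growth factor (-0.79, adjusted p = 0.0234). The 15 hair follicle genes summed to 4.64 to 12.1 CPM with aFGF (median 5.86) and 8.79 to 20.1 CPM with bFGF (median 15.0), and of the 5 that were tested 1 was called lower with aFGF, Tchh, which encodes trichohyalin (-1.28, adjusted p = 0.0193, and 0.0616 without the 3 libraries). Of 13 liver genes tested 6 were called higher with aFGF, and 2 of these 6 without the 3 libraries. Of 8 ovary and oviduct genes tested 1 was called lower, Inha, an inhibin subunit (-2.19, adjusted p = 0.0315, and -0.83 with 0.0799 without them). Il1rl1 (1.69, adjusted p = 0.0258) and Pdgfrb (-0.91, adjusted p = 0.0248) were still called without them. A list with 1 call is to be read against the 3.2% of all genes called. The part of these cell types in the ligand values was not tested.

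Within each pH the fitted change was above 0 for Egfr, Erbb3, Hbegf, Areg, Ereg, Epgn and Tgfa, and it changed sign for Erbb2 and Btc. The pair comparisons of 3 libraries against 3 called none of the 9 members by edgeR. Of all genes, 0% were called at pH 6.4, 0% at pH 7.4 and 0.00665% at pH 8.4. At pH 6.4, 5 members had an unadjusted p under 0.05: Areg (log2 fold change 1.84, SE 0.314), Ereg (1.94, SE 0.624), Epgn (0.86, SE 0.250), Tgfa (0.51, SE 0.203) and Egfr (0.32, SE 0.0975), with edgeR adjusted p of 0.584 to 0.598. The 3 libraries of aFGF did not overlap with those of bFGF for 4 members, Egfr, Areg, Ereg and Epgn, where 8.35% of all genes were wholly higher with aFGF and 6.19% wholly lower. At pH 7.4 there were 4 such members, Erbb3 (0.70, SE 0.131), Areg (1.17, SE 0.348), Tgfa (0.57, SE 0.215) and Btc (0.82, SE 0.337), with adjusted p of 0.351 to 0.383, and Erbb3, Areg and Btc did not overlap (8.53% of all genes wholly higher, 11.4% wholly lower). At pH 8.4 they were Ereg (3.69, SE 0.887), Areg (1.81, SE 0.502), Hbegf (1.07, SE 0.342) and Epgn (1.27, SE 0.458), with adjusted p of 0.124 to 0.190, and Hbegf, Areg and Ereg did not overlap (14.4% wholly higher, 12.5% wholly lower). DESeq2 called Areg at pH 6.4, Erbb3 at pH 7.4, and Hbegf, Areg and Ereg at pH 8.4, where it called 0.755%, 1.67% and 6.25% of all genes. Over all genes, 8.16% at pH 6.4, 13.0% at pH 7.4 and 21.1% at pH 8.4 had an unadjusted p under 0.05 by edgeR. Marker lists are to be read against these shares, which the neutrophil list at pH 8.4 was near. At pH 6.4, 8 of 10 adipocyte genes (median log2 fold change 1.68) and 5 of 9 sebaceous gland genes (median 0.53) had an unadjusted p under 0.05. At pH 7.4 this held for 6 of 20 keratinocyte genes (median 0.49) and 4 of 10 T and innate lymphoid cell genes (median 1.45), and at pH 8.4 for 4 of 13 macrophage genes (median 0.51), 3 of 12 neutrophil genes (median 0.69), 5 of 11 liver genes (median 3.42) and 4 of 8 ovary and oviduct genes (median -2.77). Their part in the members' values was not tested.

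The study asked whether pH alters the effect of each growth factor. Given the release of aFGF that the paper reports, its delivered dose may also differ with pH, and the part of this was not tested. The test of the interaction of pH and growth factor over the 21 libraries called 0 members and 0% of all genes, with a smallest adjusted p among members of 0.872, and 0 members and 827 genes at an unadjusted p under 0.05 (edgeR). The direct comparisons of pH 6.4 or 8.4 with 7.4, within aFGF or within bFGF, called 0 of the 9 members, where 0% of all genes were called in each of the 4 comparisons. Between pH 6.4 and 7.4 no member had an unadjusted p under 0.05 with either factor. Between pH 8.4 and 7.4 with aFGF, Erbb3 was at 25.0, 21.5 and 23.9 CPM against 33.8, 29.8 and 31.6 CPM, a log2 fold change of -0.45 (SE 0.111, edgeR adjusted p = 1.00). With bFGF, Btc was at 1.55, 2.09 and 2.48 CPM at pH 8.4 against 1.13, 1.202 and 0.913 CPM at pH 7.4 (0.93, SE 0.317, adjusted p = 0.861), and Erbb2 was at 27.2, 34.1 and 31.2 CPM against 24.6, 26.5 and 24.2 CPM (0.32, SE 0.117, adjusted p = 0.861). DESeq2 also called 0 members in the 4 comparisons.

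By group mean, Egfr ran from 7.4/aFGF (116 CPM) through 6.4/aFGF, 8.4/aFGF, 7.4/bFGF, 6.4/bFGF and 8.4/bFGF (90.4 CPM) to control (73.9 CPM), and only 7.4/bFGF and 6.4/bFGF, among neighbours in that order, did not overlap. For Areg the order was 6.4/aFGF (26.2 CPM), 8.4/aFGF, 7.4/aFGF (17.0 CPM), 7.4/bFGF (7.54 CPM), control, 6.4/bFGF and 8.4/bFGF (6.05 CPM), with the single gap between 7.4/aFGF and 7.4/bFGF. Hbegf, Ereg, Epgn and Tgfa also had the 3 aFGF groups first, and every pair of neighbours in their orders overlapped. Erbb2 had control first (32.7 CPM) and 7.4/bFGF last (25.1 CPM), and Btc likewise ran from control (2.80 CPM) to 7.4/bFGF (1.08 CPM), which lay below its neighbour 8.4/aFGF without overlap. Over the 7 groups together, edgeR's F test called 0 of 9 members, where 0.114% of all genes were called. The smallest adjusted p was that of Areg (0.0630), and 5 members, Erbb3, Areg, Ereg, Epgn and Tgfa, had an unadjusted p under 0.05. DESeq2 called these 5, and 12.7% of all genes.

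Against control wounds, the comparison of all 18 hydrogel libraries with the 3 controls called 0 of the 9 members by edgeR, although the fitted change was above 0 for Egfr and for each ligand but betacellulin, 6 members in all, where 0.00632% of all genes were called. The log2 fold change of hydrogel over control was 0.50 for Egfr (SE 0.172, adjusted p = 0.189), -0.21 for Erbb2 (SE 0.130, adjusted p = 0.432) and -0.28 for Erbb3 (SE 0.159, adjusted p = 0.389). Among the ligands it was 0.88 for Tgfa (SE 0.237, adjusted p = 0.128), 1.176 for Epgn (SE 0.429, adjusted p = 0.200) and 0.83 for Hbegf (SE 0.382, adjusted p = 0.287). It was 0.72 for Areg (SE 0.339, adjusted p = 0.297), 1.25 for Ereg (SE 0.823, adjusted p = 0.458) and -0.64 for Btc (SE 0.256, adjusted p = 0.232). All but Erbb2, Erbb3 and Ereg, 6 of the 9, had an unadjusted p under 0.05, against 16.7% of all genes. For all 9 members the hydrogel and control ranges overlapped, where 0.354% of all genes were wholly higher and 0.253% wholly lower in hydrogel wounds. DESeq2 called 1 member, Tgfa (adjusted p = 0.0166), and 1.12% of all genes. Marker lists are to be read against the same 16.7% of all genes. With 0 called in each list, 7 of 10 adipocyte genes had an unadjusted p under 0.05 (median log2 fold change -1.24). So did 7 of 20 keratinocyte genes (median 0.15) and 4 of 9 mast cell genes (median -0.30). Of the neutrophil genes it was 1 of 12 (median 0.91), below the share of all genes. The part of these cell types in the members' values was not tested.

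Control replicate 2 stood apart from the other controls in this comparison. It held 1223 counts of Hbegf against 350 and 410 in control replicates 1 and 3, and 1066 counts of Ereg against 133 and 123, while its Areg count was 263 against 303 and 235. Without it edgeR called 3 members higher in hydrogel wounds: Hbegf (log2 fold change 1.68, adjusted p = 0.0174), Epgn (1.71, adjusted p = 0.0423) and Tgfa (1.36, adjusted p = 0.00507). Of all genes 7.4% were then called. This library stood above the other controls in neutrophil, mast cell, lymphoid and ovary genes and below them in adipocyte and sebaceous gland genes, and it had the highest Nrg1 of the 3, at 45.3 CPM against 9.41 and 4.58 CPM. The part of these cell types in its values was not tested.

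Splitting the hydrogels by growth factor, a pair of comparisons added after seeing the data that share the 3 control libraries, gave the values that follow side by side. With aFGF, edgeR called 2 of the 9 members higher than control, Areg (log2 fold change 1.53, SE 0.375, adjusted p = 0.0447) and Tgfa (1.12, SE 0.253, adjusted p = 0.0356), where 1.26% of all genes were called and 0.481% called higher. Both had all 9 aFGF libraries above all 3 controls, as did 2.37% of all genes. Without the 3 libraries with transcripts of another tissue, Tgfa was lost (1.14, adjusted p = 0.0541) and Egfr gained (0.64, adjusted p = 0.0464). Epgn (1.73, SE 0.463, adjusted p = 0.0566), Egfr (0.63, SE 0.183, adjusted p = 0.0698), Hbegf (1.25, SE 0.412, adjusted p = 0.0992) and Ereg (2.40, SE 0.925, adjusted p = 0.145) missed the threshold. With bFGF, edgeR called 0 members, where 0.0126% of all genes were called, with Erbb3 (-0.49, SE 0.170, adjusted p = 0.276), Btc (-0.76, SE 0.277, adjusted p = 0.287) and Tgfa (0.63, SE 0.245, adjusted p = 0.307) at an unadjusted p under 0.05, and DESeq2 called 0. The 95% interval of the log2 fold change of bFGF over control was -0.80 to 0.64 for Areg and -1.61 to 1.79 for Ereg. The calls with aFGF were thin: that of Areg was lost without any of 15 of the 21 libraries and kept without each of the others (replicate 2 of control, 6.4/aFGF and 8.4/aFGF, and replicate 3 of 7.4/aFGF, 8.4/aFGF and 6.4/bFGF), and that of Tgfa was lost without any of 7, control replicates 1 and 3, 6.4/aFGF replicate 1, 7.4/aFGF replicate 2, 8.4/aFGF replicates 1 and 2 and 7.4/bFGF replicate 1. Without control replicate 2, the members called with aFGF were 6 (Egfr, Hbegf, Areg, Ereg, Epgn and Tgfa), where 11.9% of all genes were called. DESeq2 called the same 6 with all libraries, and 3.83% of all genes. Without 7.4/aFGF replicate 3 or 8.4/aFGF replicate 3 the members called were 4 (Egfr, Areg, Epgn and Tgfa), with 1.71% and 1.95% of all genes. Of the marker lists in the aFGF comparison, 1 of 20 keratinocyte genes was called higher, Dsg3, a desmosomal cadherin (0.93, SE 0.196, edgeR adjusted p = 0.0311). Among T and innate lymphoid cell genes Gata3, a transcription factor, was called lower (-1.25, adjusted p = 0.0356), and among fibroblast genes Postn, which encodes periostin (-1.23, adjusted p = 0.0448), 1 of 10 in each list. The last 2 calls were lost without the 3 libraries with transcripts of another tissue (adjusted p = 0.0741 and 0.0781), and the part of these cell types in the members' values was not tested.

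**Figure D4:**
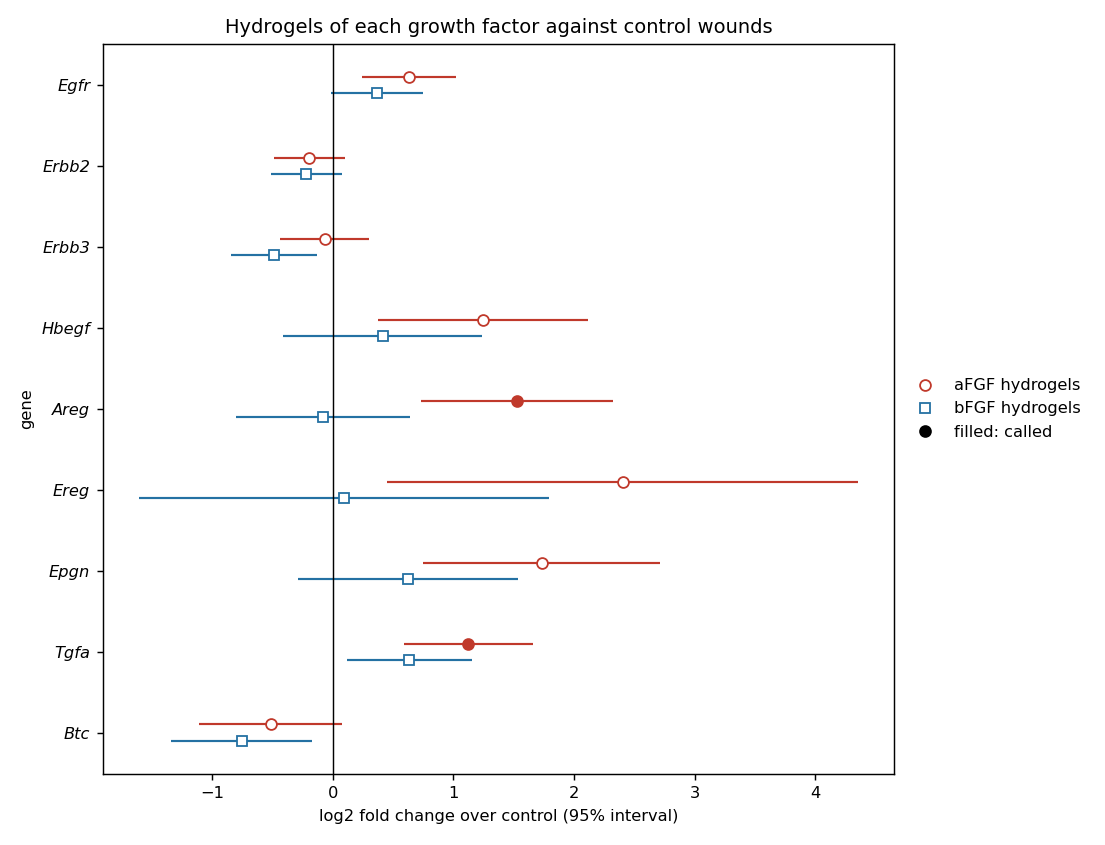
Log2 fold change over control for each member (x axis, with the 95% interval of edgeR's quasi-likelihood fit), for the 9 aFGF libraries in red and the 9 bFGF libraries in blue, which share the 3 controls, filled where called. Areg and Tgfa are filled with aFGF at 1.53 and 1.12, and no member is filled with bFGF.

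Each gene was also set against a keratinocyte score, the mean log2 CPM of the 20 keratinocyte genes. edgeR called 0 of the 9 members for a slope on the score, where 0.885% of all genes were called, and 1 member had an unadjusted p under 0.05: Erbb2, with a slope of 0.32 (SE 0.148, adjusted p = 0.402). With the score as a covariate, an alternative added after seeing the data, Areg (1.61), Ereg (2.55) and Epgn (0.98, edgeR adjusted p = 0.0490) were called for aFGF against bFGF. The Pearson r of the score with log2 CPM was 0.20 for Areg, 0.060 for Ereg and 0.39 for Epgn. For Areg and Ereg the covariate was thus a weak test. No covariate was fitted for the other marker lists.

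Most of the ligands and Egfr varied together across libraries. Of the 36 pairs of members, 14 had a Pearson r of log2 CPM above 0.6 over the 21 libraries, and those pairs were all among Egfr, Hbegf, Areg, Ereg, Epgn and Tgfa. The share of all gene pairs above that value was not worked out. An r of 0.61 with Egfr placed Areg 513th of 15810 genes in similarity to it. The permutations exchanged values over all 21 libraries, so their p also takes in differences between groups. Hbegf and Ereg had an r of 0.87 (permutation p = 1e-05, the smallest that 100000 permutations give, adjusted p = 9e-05 over the 36 pairs) and a Spearman rho of 0.87 (permutation p = 1e-05, adjusted p = 0.00036). It was 0.81 without the 2 libraries farthest from the median of Hbegf, and 0.82 between the deviations from the group means. Hbegf and Tgfa had an r of 0.87 (permutation p = 1e-05, adjusted p = 9e-05) and a rho of 0.77 (permutation p = 0.00013, adjusted p = 0.0009), with 0.81 without the 2 farthest libraries and 0.83 between deviations. Areg and Ereg, which are neighbours on the chromosome, had an r of 0.81 (permutation p = 4e-05, adjusted p = 0.000206) and a rho of 0.75 (permutation p = 0.00015, adjusted p = 0.0009), with 0.73 without the 2 farthest libraries and 0.59 between deviations. Egfr and Epgn had an r of 0.79 (permutation p = 1e-05, adjusted p = 9e-05) and a rho of 0.80 (permutation p = 3e-05, adjusted p = 0.00036), with 0.68 without the 2 farthest libraries and 0.81 between deviations. Erbb2 had its highest r with Erbb3, 0.50 (permutation p = 0.02, adjusted p = 0.045), with a rho of 0.47 (permutation p = 0.0312, adjusted p = 0.0660) and an r of 0.48 without the 2 farthest libraries. Btc, the last gene of the chromosome 5 cluster, had an r of -0.08 with Ereg and 0.06 with Areg.

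**Figure D5:**
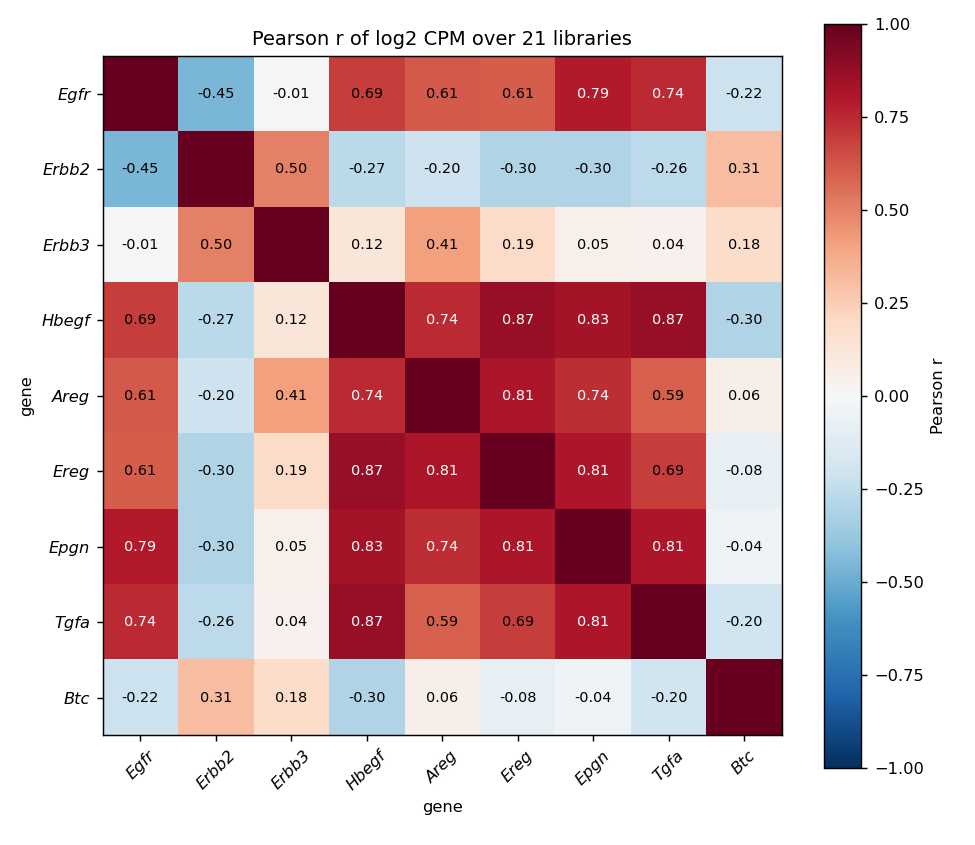
Pearson r of log2 CPM between each pair of members over the 21 libraries, with the value printed in each cell and colour from -1 (blue) to 1 (red). Egfr, Hbegf, Areg, Ereg, Epgn and Tgfa form a block of high values with 0.59 for Areg and Tgfa the lowest, and Erbb2, Erbb3 and Btc stand outside it.

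As a description over the 21 libraries, which share group differences and markers of cell type, the genes with the most similar log2 CPM were found for each member among the 15810 other genes tested. For Ereg they were Bcl10 (r = 0.96), Jdp2 (0.95) and Golph3 (0.95). For Hbegf they were Bach1 (0.92), Gprc5a (0.91) and Larp4b (0.91). Areg was closest to Akap12 (0.87), Nr4a2 (0.87) and Slc25a33 (0.87), Epgn to Usp16 (0.90), Gnl3 (0.89) and Pde12 (0.89), and Tgfa to Ppat (0.89), Ahctf1 (0.88) and Kif21a (0.88). Egfr was closest to Il1r1 (0.89), an interleukin 1 receptor, Zswim8 (0.86) and Zdhhc13 (0.84). Erbb3 was closest to Dsg2 (0.84), a desmosomal cadherin, St14 (0.83), an epithelial membrane protease, and Celsr2 (0.82), and Erbb2 to Ppp2r2c (0.80), Rassf10 (0.79) and Emp2 (0.78). Btc was closest to Tyr (0.76), the melanocyte enzyme tyrosinase, Gdf6 (0.75) and Ivl (0.75), which encodes involucrin of the cornified envelope. Among the members themselves, the closest places were those of Hbegf, the 4th most similar gene to Tgfa, and Epgn, the 14th to Egfr. Other members ranked far lower: Areg was 309th and Egfr 1552nd in similarity to Ereg, and Tgfa was 1025th to Areg.

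The rest of the pathway was read from 79 genes in 5 lists, whose largest count of calls between aFGF and bFGF was 1 gene a list, against 3.2% of all genes called and 28.02% at an unadjusted p under 0.05. Of the other ligands and the receptor Erbb4, 5 of 6 genes could be tested and 1 was called between aFGF and bFGF: Nrg1, which encodes neuregulin 1, a ligand of Erbb3. Nrg1 was at 23.6, 25.5 and 37.5 CPM in 6.4/aFGF, 65.1, 43.4 and 15.3 CPM in 7.4/aFGF and 43.2, 43.0 and 14.7 CPM in 8.4/aFGF. With bFGF all 9 libraries were at 8.67 to 19.0 CPM, and the lowest aFGF libraries fell within that range. Its log2 fold change was 1.55 (SE 0.387, edgeR adjusted p = 0.0212), and 1.57 (adjusted p = 0.0464) without the 3 libraries with transcripts of another tissue. Against control, 0 of the 5 were called and 3 had an unadjusted p under 0.05, with Nrg2 at -0.90 (SE 0.317, adjusted p = 0.191) for hydrogel over control. Erbb4, also among the 3, was nearly absent, at a mean of 0.222 CPM in control, 0.0586 CPM with aFGF and 0.0646 CPM with bFGF, and no fold change is given for it.

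Of the 11 genes of ligand shedding and trafficking that were tested, 0 were called between aFGF and bFGF by edgeR, with 4 at an unadjusted p under 0.05, and 0 for hydrogel against control, with 3. The sheddase Adam17, which releases most of these ligands, was at 117 ± 23.3 CPM in control (SD, n = 3), 130 ± 13.1 CPM with aFGF (SD, n = 9) and 139 ± 14.2 CPM with bFGF (SD, n = 9). Its log2 fold change of bFGF hydrogels over control was 0.26 (SE 0.114, edgeR adjusted p = 0.345). Adam9, another metalloprotease, and Rhbdf1, a rhomboid-like protein that carries Adam17 to the surface, had the smallest p for hydrogel against control, at 0.38 (SE 0.106, adjusted p = 0.138) and -0.24 (SE 0.0990, adjusted p = 0.235). For aFGF hydrogels over control Adam9 was at 0.49 (SE 0.113, edgeR adjusted p = 0.0373), past the p threshold and under the fold threshold.

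Of the 24 receptor adaptors and downstream kinases, all tested, 12 had an unadjusted p under 0.05 between aFGF and bFGF and 1 was called, Eps8, a substrate of the Egfr kinase that acts on actin. Eps8 was at 90.8 to 201 CPM with aFGF and 65.3 to 120 CPM with bFGF, ranges that overlapped, with a log2 fold change of 0.59 (SE 0.166, edgeR adjusted p = 0.0332), just past the fold threshold. The call was lost without the 3 libraries with transcripts of another tissue (0.61, adjusted p = 0.0505). For hydrogel against control 0 were called and 1 had an unadjusted p under 0.05, Pik3r1, the regulatory subunit of PI3 kinase (-0.42, SE 0.115, adjusted p = 0.128), with Pik3ca, its catalytic partner, next (0.22, SE 0.107, adjusted p = 0.317). Pik3r1 was at -0.49 for aFGF hydrogels over control (SE 0.123, edgeR adjusted p = 0.0481), past the p threshold and under the fold threshold.

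Of the 21 inhibitors of the receptors and genes of receptor turnover, all tested, 9 had an unadjusted p under 0.05 between aFGF and bFGF and 1 was called: Errfi1, which encodes an inhibitor of the Egfr kinase that the receptor's own signal is known to induce. Errfi1 was at 407, 206 and 552 CPM in 6.4/aFGF, 425, 382 and 104 CPM in 7.4/aFGF and 862, 529 and 177 CPM in 8.4/aFGF. With bFGF it was at 72.4 to 264 CPM, and 6.4/aFGF replicate 2, 7.4/aFGF replicate 3 and 8.4/aFGF replicate 3 fell within the bFGF range. The difference was 1.40 on the log2 scale (SE 0.374, edgeR adjusted p = 0.0281), and 1.45 (adjusted p = 0.0474) without the 3 libraries with transcripts of another tissue. Rnf41, a ubiquitin ligase that lowers Erbb3, was the single gene of the 5 lists that the F test over the 7 groups called (adjusted p = 0.0232). It was at 23.1 ± 0.0945 CPM in control (SD, n = 3), 31.3 ± 3.60 CPM with aFGF (SD, n = 9) and 26.7 ± 2.76 CPM with bFGF (SD, n = 9). Its log2 fold change of aFGF over bFGF was 0.23 (SE 0.0471, edgeR adjusted p = 0.0109), under the fold threshold. For aFGF hydrogels over control it was 0.43 (SE 0.0683, edgeR adjusted p = 0.0132), also under that threshold. For hydrogel against control 0 of the 21 were called and 4 had an unadjusted p under 0.05, with Rnf41 at 0.32 (SE 0.0639, adjusted p = 0.0612) and Lrig1, which promotes receptor degradation, at -0.31 (SE 0.0977, adjusted p = 0.169).

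Of the 16 transcripts known to respond to the receptor, all tested, 1 was called between aFGF and bFGF and 3 had an unadjusted p under 0.05. The called gene was Phlda1, at 34.4 to 211 CPM with aFGF and 28.5 to 78.6 CPM with bFGF, with a log2 fold change of 1.00 (SE 0.308, edgeR adjusted p = 0.0471). Without the 3 libraries with transcripts of another tissue it was 1.27 (adjusted p = 0.0418). The median log2 fold change of the 16 was 0.43 against -0.0016 over all genes tested, while 3 of 16 at an unadjusted p under 0.05 was below the 28.02% of all genes. For hydrogel against control 0 were called and 4 had an unadjusted p under 0.05, with Etv5, a transcription factor of the ETS family, at -0.38 (SE 0.109, adjusted p = 0.148) and Plau, the urokinase plasminogen activator, at -0.58 (SE 0.171, adjusted p = 0.150). Etv5 was at -0.47 for aFGF hydrogels over control (SE 0.117, edgeR adjusted p = 0.0451), past the p threshold and under the fold threshold.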

How the data were processed

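Wound tissue RNA had been sequenced in 21 libraries, 3 biological replicates per the labels in each of 7 groups. Each mouse was wounded on both sides of the back, and the sources used here do not say whether the 3 libraries of a group came from 3 animals, so p-values measure the spread between libraries, which may share animals. The authors deposited 1 table per library with raw counts per gene, not normalized, and the authors' FPKM beside them. On 13699 genes with at least 10 counts in every library, the deposited FPKM equalled the count divided by a fixed length and by the library's total, with a spread of at most 6.01e-06% in the recovered length, so the 2 columns hold 1 measurement. The genome build was GRCm39 per the submitters' processing notes, and the aligner, counter, strand setting and annotation were not given in the sources used here. The library kit keeps strand, and overlapping genes may share reads. A RefSeq gene table of another assembly held 99.2% of the 18806 symbols and served for names and neighbours alone.

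Counts were tested in R 4.3.3 with edgeR 4.0.16 (TMM, filterByExpr by group, quasi-likelihood test), with pairs of groups fitted on their 6 libraries and the other comparisons on all 21 with a mean per group. A call needed a Benjamini-Hochberg adjusted p under 0.05 over all genes tested and, for fold changes, a log2 fold change beyond 0.58. CPM were scaled by TMM, and log2 CPM had a prior count of 2. DESeq2 1.42.0, other scalings and filters, a replicate block and leaving out libraries were tried as alternatives. Libraries of a group differed by more than counting noise. The pair 7.4/bFGF replicates 1 and 2 was the closest by far, at 17.2 chi-square units per degree of freedom. The other pairs within groups had 70.7 to 368. Whether these 2 close libraries share an animal is not known, and every fit counts them as separate. Errors are SDs over libraries or SEs of the fit. A gene at 0 counts in a library could have been present at up to 3 counts. In simulated counts with 200 changed genes of 15811, the test of aFGF against bFGF recovered 180, with 12 false calls. The 180 pools nominal folds from 2 upward, and at the nominal 2-fold 80.6% were recovered. The planted gap between aFGF and bFGF was somewhat wider than the nominal fold, so these shares are too high for smaller changes.

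The rule named all 9 members in each comparison by their levels, counts and calls, and printed fold changes for hydrogel against control and elsewhere where the unadjusted p was under 0.05. Of each list the called genes were named, up to 4 of the smallest adjusted p, or else the 2 with the smallest p for hydrogel against control, and 3 genes were named per member for similarity. Adam17, Rnf41, Dsg3, Gata3, Postn and Il1rl1 were described beyond or beside that rule after their values were seen. So were the values of Adam9, Pik3r1 and Etv5 for aFGF hydrogels over control. The members and lists were chosen with earlier results of these data known. No pairing of libraries of different groups by replicate number was seen: over 63 pairs with the same number the correlation of deviations from group means was -0.638 to 0.423, with a median of 0.0089.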

Additional observations from a re-analysis of the deposited data

How the results depend on the processing

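The members called were 3 for aFGF against bFGF, 2 for aFGF hydrogels against control and 0 elsewhere. Another scaling and other filters gave the same counts, and no fold threshold or a fit of the 18 hydrogel libraries gave 4 for aFGF against bFGF, with Erbb3 or Hbegf added. DESeq2 called 5 members over the 7 groups, 1 for hydrogels against control, 6 for aFGF hydrogels against control, and 1, 1 and 3 for aFGF against bFGF at pH 6.4, 7.4 and 8.4; the cause was not tested. Leaving out 1 library at a time gave 0 to 4 members over the 7 groups, 0 to 3 for hydrogels against control, 1 to 4 for aFGF against bFGF over all pH, 0 to 6 for aFGF and 0 to 1 for bFGF hydrogels against control, and 0 in the other comparisons. Over the 7 groups, 4 members were called without control replicate 2 and 1 (Areg) without 7.4/aFGF replicate 3, 8.4/aFGF replicate 1 or 8.4/aFGF replicate 3. For aFGF against bFGF over all pH, Areg alone was called without 8.4/aFGF replicate 1 or 6.4/bFGF replicate 1. For bFGF hydrogels, Tgfa was called without control replicate 2 (1.11, adjusted p = 0.0234).

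Counts over all genes moved more. DESeq2 called 2050 genes against 18 over the 7 groups, 170 against 1 for hydrogels, 579 against 199 for aFGF and 92 against 2 for bFGF hydrogels against control, 773 against 506 for aFGF against bFGF over all pH, 4 against 0 for the interaction, 119, 264 and 955 against 0, 0 and 1 at pH 6.4, 7.4 and 8.4, and 13 to 113 against 0 between pH values. Without a fold threshold aFGF against bFGF had 1702 genes and aFGF hydrogels against control 375. Leaving out 1 library gave 269 to 714 genes for aFGF against bFGF, 0 to 1189 for hydrogels, 0 to 1912 for aFGF and 0 to 426 for bFGF hydrogels against control, 7 to 864 over the 7 groups, 9 to 195 for the keratinocyte score, 0 to 172 at pH 8.4 and 0 to 278 for pH 6.4 against 7.4 with bFGF. A fit of all 21 libraries gave 12 and 10 genes at pH 7.4 and 8.4, the count minimum of 10 gave 5 and the keratinocyte covariate 44 for hydrogels against control, and leaving out the 3 libraries with transcripts of another tissue gave 3 over the 7 groups.

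The replicate block left 2 members called for aFGF against bFGF, with Ereg at a log2 fold change of 2.15 and an adjusted p of 0.0558, and took the genes called to 403, to 101 for aFGF hydrogels against control and to 10 over the 7 groups. With 5 of 21 libraries closest to their own number, no pairing by number was seen. A shared batch or processing order was not tested. No called member changed direction in any alternative run. With 3 libraries a group, a simulated 2-fold change at pH 8.4 was recovered in 23.9% of changed genes. The lowest count of a member was 31.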
